A study of Drosophila melanogaster with 102 samples.

Results

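The meiotic arrest genes are 9 testis genes of Drosophila melanogaster, chosen by name and looked up by FlyBase identifier among the 14312 genes of the count tables, and all 9 were found. Males that lack one of them keep spermatocytes that grow but do not enter the meiotic divisions, and no sperm form. Always early (aly), cookie monster (comr), matotopetli (topi) and tombola (tomb) are subunits of tMAC, the testis form of a chromatin-bound complex that elsewhere in the fly contains mip130 and mip120. Cannonball (can), meiosis I arrest (mia), spermatocyte arrest (sa), no hitter (nht) and ryan express (rye, listed as Taf12L in the annotation) encode testis forms of TFIID subunits, the TBP-associated factors. In spermatocytes the tMAC subunits are needed to switch on genes for meiotic division, and both they and the testis TAFs are needed for genes that build sperm. The members thus describe how much RNA of these regulators a whole male carried.

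The flies were of the strain W1118, white mutants, and total RNA of whole organisms was sequenced. Sons and daughters had mothers kept for 7 days on a high fat diet (HFD), a high sugar diet (HSD) or a control diet (CD) and mated with CD-fed males, and the offspring themselves ate CD under light/dark cycles at 25 °C until day 0, 10 or 50. The 9 groups of sons had 5 libraries each, except HFD day 50 with 3 and HSD day 50 with 6, which makes 44 libraries. The 43 libraries of daughters and the 15 of the mothers themselves, which were HFD, HSD or CD females, served as female background. The labels do not say how many flies made a library or whether replicates came from separate crosses, so p-values measure the spread between these libraries, which may in part be technical.

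Libraries of sons held 6332907 to 16040487 counts. The 9 members together had 69 to 1431 counts in a son, with a median of 763.5, and the median count per son ran from 23.5 for comr to 203 for topi, which limits the precision of every level below. Levels are given as CPM, the count divided by the library's size after scaling by the trimmed mean of M values (TMM) over the libraries of sons, daughters and mothers. Some libraries went against their label or stood apart. Among HFD day 0 sons, the library labelled m8 had 0 counts of the testis tubulin betaTub85D and of the accessory gland gene Acp36DE, with the oocyte gene osk at 1117 CPM. The libraries labelled m1, m3 and m4, all CD day 0 sons, held both male transcripts and osk at 20.1, 252 and 53.3 CPM, and among HSD day 0 daughters f12 had 225 CPM of betaTub85D. Among later sons, m27 (HSD day 10) had Acp36DE at 703 CPM but betaTub85D at 21.2 CPM, and m45 (HSD day 50) had betaTub85D at 673 CPM, inside the 647 to 864 CPM of CD day 10 sons. In earlier results of these data m45 resembled day 0 sons. Its TMM factor was 0.844, inside the 0.838 to 0.950 of day 0 sons other than m8. The other day 50 sons had 0.962 to 1.085.

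The genes lie on 4 chromosome arms of the BDGP6.54 annotation. For tMAC they are aly at 3L:3024129-3026521, comr at 2R:21864870-21866859, topi at 3R:9775121-9777943 on the plus strand, and tomb at 2L:5535861-5536758. For the testis TAFs they are can at 3L:10263909-10267111, mia at 3R:5548115-5551168, sa at 3L:21405425-21406738, nht at 2L:15317954-15318901, and rye at 2L:4700835-4701485, and all but topi are on the minus strand. The gene tomb overlaps exons of Cap-D3 on the other strand over 98 bases, while sa lies inside rgn and rye inside dcma with 0 shared exonic bases. Nothing in the labels or notes tells whether the libraries kept strand, so for tomb the reads of the overlap cannot be assigned to one gene.

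Per kilobase of transcript, the 9 members spanned a wide range in CD day 10 sons. The highest was rye at 20.6 ± 1.48 CPM per kb (SD, n = 5), followed by sa at 10.7 ± 1.81, topi at 8.004 ± 0.43, mia at 5.50 ± 0.70, nht at 5.40 ± 0.90, tomb at 4.13 ± 0.83, can at 3.22 ± 0.79, aly at 2.99 ± 0.54 and comr at 1.33 ± 0.36. The ranges of rye and of comr did not overlap those of any other member, sa and topi did not overlap each other, and neither did topi and mia. The ranges of mia, nht and tomb overlapped each other, as did those of tomb, can and aly. Levels of tMAC members and of testis TAFs were interleaved in this order.

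Each testis TAF and 2 of the tMAC members have a counterpart that most cells use, and per kilobase the counterparts were mostly the more abundant form in whole males. In CD day 10 sons nht had 20.2% of the level of Taf4 (26.8 ± 0.26 CPM per kb), mia 49.8% of Taf6, can 57.4% of Taf5, rye 77.8% of Taf12 and aly 47.6% of mip130. The exceptions were sa, at 10.7 ± 1.81 against 6.19 ± 0.78 CPM per kb for Taf8, and tomb, at 4.13 ± 0.83 against 4.13 ± 0.39 CPM per kb for mip120. These shares are of the whole body, of which the testis is a part.

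Sons were first set against daughters of the same day whose mothers had the same diet. In CD day 10 flies all 9 members were higher in sons by edgeR's quasi-likelihood test with Benjamini-Hochberg adjustment, where 46.4% of 12462 tested genes were called higher. For members near 0 in daughters this call is a description, since they passed the filter on low counts through the sons alone. The counts of comr, sa and nht were 0 in the 5 daughters, against 147, 580 and 291 in the 5 sons. With 3 counts over the daughters taken as the floor, comr was at least 53.8-fold, nht at least 104-fold and sa at least 208-fold higher in sons. The members mia and topi were less restricted. The log2 fold change was 1.59 ± 0.17 (SE) for mia and 3.78 ± 0.17 for topi, and over the 42 daughters other than f12 mia ranged from 2.20 to 8.38 CPM with a median of 3.82, and topi from 0.343 to 4.002 CPM with a median of 1.66. The mothers gave medians of 3.33 CPM for mia and 1.74 CPM for topi. How much of mia and topi in sons came from outside the testis was not tested.

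**Figure D1:**
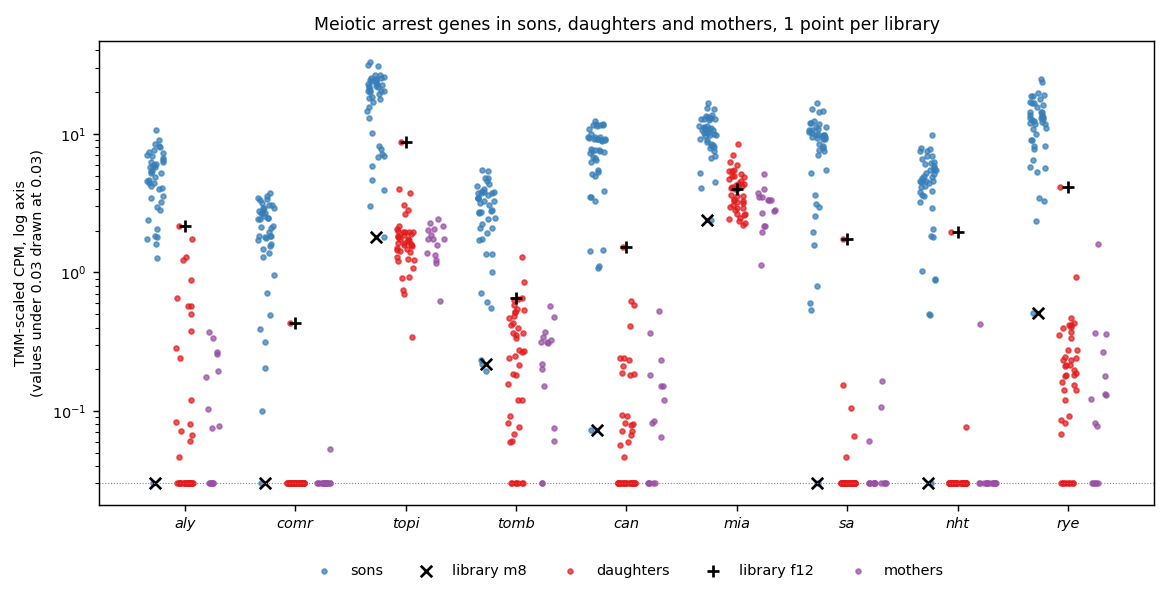
TMM-scaled CPM of each member in every son, daughter and mother library (log axis, 1 point per library, values under 0.03 CPM drawn at 0.03). The cross marks the library labelled m8 among the sons and the plus sign the library labelled f12 among the daughters; topi and mia are the members found in every female library.

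In the other comparisons of the sexes the filter on low counts set much of what could be counted, since a member near 0 in daughters passed it through the sons alone. The filter kept 9 members in CD day 0, HSD day 0, HFD day 10 and HFD day 50, 7 in HSD day 50, 6 in HSD day 10 and in CD day 50, and 2 in HFD day 0. As a description, the members called higher in sons were 9 in CD day 0 (30.5% of genes higher), 9 in HSD day 0 (15.8%), 9 in HFD day 10 (36.1%), 6 in HSD day 10 (45.8%), 5 in CD day 50 (45.4%), 9 in HFD day 50 (50%), 7 in HSD day 50 (46.2%) and 1 in HFD day 0 (6.89%), and these counts say nothing of the members the filter removed. In HFD day 0 only topi and mia were kept and topi was called, whereas without m8 all 9 were kept and called. The background moved too, since leaving out each library in turn gave 527 to 6649 genes called there in either direction. In CD day 50, tomb had 0.555, 2.07, 1.35, 2.09 and 0.713 CPM in sons and up to 1.30 CPM in daughters and did not pass (log2 fold change 0.92 ± 0.54, adjusted p = 0.129). The lowest son and the highest daughter overlapped there for topi, tomb and mia.

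Age was then compared within sons of CD mothers. Between day 10 and day 50, 8 of the 9 members fell, all 4 of tMAC and 4 of the 5 testis TAFs, where 31.8% of 12609 tested genes fell, 34.1% rose and 65.9% changed in either direction. The median log2 fold change of the 9 was -1.23, against 0.08 over all genes. For 7 members (aly, topi, tomb, can, mia, sa and nht) the 5 day 50 libraries lay below the 5 day 10 libraries without overlap, as did those of 30.6% of all genes. In bulk RNA of whole flies, fewer spermatocytes and less RNA in each cannot be told apart.

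Among tMAC subunits, aly, the homologue of mip130, had 1.82, 2.37, 2.94, 2.82 and 2.05 CPM in the 5 CD day 50 sons, against 7.66, 4.64, 5.82, 5.74 and 6.30 CPM in the 5 CD day 10 sons. All day 50 values were under the lowest of day 10, and aly fell by 1.19 ± 0.21 on the log2 scale (adjusted p = 0.000173). The zinc finger protein gene topi had 6.90, 7.80, 8.11, 7.19 and 3.92 CPM at day 50, against 22.7, 20.2, 20.5, 20.6 and 22.2 CPM at day 10. Its day 10 values were the tightest of the 9 members relative to their mean, and it had the smallest adjusted p of the members (a fall of 1.51 ± 0.16 on the log2 scale, adjusted p = 3.61e-06). The scarcest member, comr, had 0.952, 0.494, 1.83, 1.82 and 0.713 CPM at day 50, against 2.91, 2.47, 2.67, 3.57 and 1.60 CPM at day 10. Its groups overlapped, since the lowest day 10 son was under the 2 highest day 50 sons, and it fell by 1.03 ± 0.35 (adjusted p = 0.0190). The CXC-domain gene tomb, with the day 50 values given above, had 3.17, 2.47, 4.21, 4.01 and 3.43 CPM at day 10 and fell by 1.23 ± 0.32 (adjusted p = 0.00389).

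Among the testis TAFs, sa, the homologue of Taf8, fell most of all members. It had 0.793, 1.58, 2.94, 3.64 and 0.535 CPM in CD day 50 sons, against 12.4, 11.8, 9.19, 9.42 and 8.46 CPM in CD day 10 sons. The 2 groups were far apart, and sa fell by 2.29 ± 0.36 on the log2 scale (adjusted p = 8.03e-05). The Taf5 homologue can had 1.43, 3.26, 3.50, 5.46 and 1.07 CPM at day 50, against 9.51, 6.82, 11.3, 7.58 and 12.3 CPM at day 10, a fall of 1.56 ± 0.34 (adjusted p = 0.000901). The Taf4 homologue nht had 1.03, 0.494, 2.07, 3.64 and 0.891 CPM at day 50, against 6.21, 4.79, 5.82, 4.55 and 4.23 CPM at day 10, a fall of 1.51 ± 0.38 (adjusted p = 0.00273). For all 3 genes the day 50 library m34 was the highest of its group, and still below every day 10 son.

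The other testis TAFs moved less. The Taf6 homologue mia had 4.52, 7.51, 8.43, 7.92 and 6.68 CPM in CD day 50 sons, against 10.3, 12.6, 11.4, 9.63 and 13.01 CPM in CD day 10 sons, and fell by 0.57 ± 0.15 (adjusted p = 0.00315). The Taf12 homologue rye had 8.17, 5.63, 9.94, 23.5 and 3.30 CPM at day 50, against 13.2, 12.2, 11.9, 12.8 and 10.9 CPM at day 10. Its day 50 values spread on both sides of the day 10 values because m34 was at 23.5 CPM while the other 4 were below every day 10 son, and the log2 fold change was -0.13 ± 0.37 (adjusted p = 0.765). Without m34, all 9 members fell, with rye at -0.75 (adjusted p = 0.0182) and 7726 of 12661 genes called in either direction. That call of rye is a description, since m34 was singled out by its rye value. With all 9 groups of sons in the fit the values of comr and mia were close to these but did not pass (adjusted p = 0.152 and 0.0534).

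**Figure D2:**
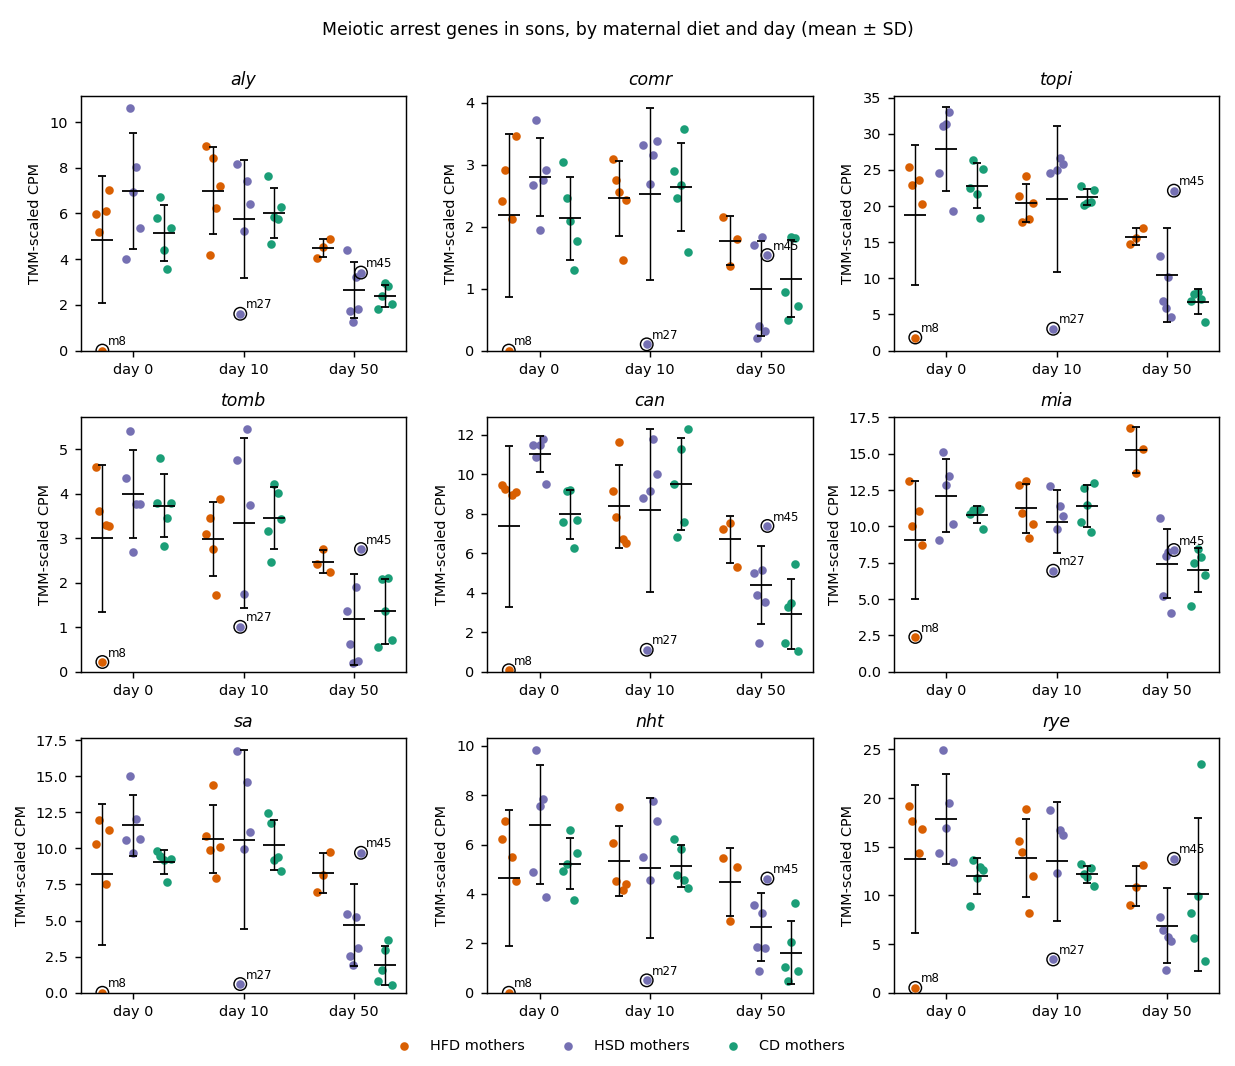
TMM-scaled CPM of the 9 members in the 44 son libraries by day and maternal diet (HFD, HSD, then CD within each day; points are libraries, horizontal marks the mean and bars the SD). The libraries m8, m27 and m45 are circled; in CD sons the day 50 points of 7 members lie below all day 10 points, and the highest rye point of CD day 50 is m34.

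Between day 0 and day 10 no member was called in CD sons, where 27.9% of genes were called (16% higher and 11.9% lower at day 10), and the largest log2 fold change among the members was 0.35 ± 0.34 for comr (adjusted p = 0.552). Without m1, m3 and m4 the values lay between -0.28 for tomb and 0.34 for comr. None was called over this interval in HFD sons either (8.29% of genes, 5.49% higher and 2.8% lower) or in HSD sons (0.442%, of which 0.244% higher and 0.197% lower). Without m8 the HFD values lay between -0.29 for tomb and 0.22 for aly, which was at 0.58 with m8, and without m27 the HSD values lay between -0.11 for rye and 0.22 for sa.

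The known partners, targets and counterparts of the members were read in the same comparison of day 50 with day 10 CD sons. The 5 listed genes that need both tMAC and the testis TAFs all fell, with a median log2 fold change of -3.31. These were Mst87F and dj, which encode sperm tail proteins, fzo, which fuses mitochondria in spermatids, janB and gdl, from a fall of 3.55 ± 0.50 for Mst87F to one of 2.47 ± 0.23 for gdl (adjusted p of 5.41e-05 or less). The 3 listed genes of the meiotic divisions that need tMAC fell as well: the Cdc25 phosphatase twe by 2.39 ± 0.29, the translation regulator bol by 1.73 ± 0.11 and the cyclin CycB by 1.91 ± 0.62 (adjusted p of 0.0146 or less). All 5 other spermatocyte transcription regulators fell, led by the bromodomain genes tbrd-2 (2.27 ± 0.32) and tbrd-1 (2.26 ± 0.32).

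Of 5 tMAC partners, 4 fell, vis by 1.73 ± 0.23, wuc by 1.23 ± 0.35, achi by 0.76 ± 0.16 and mip40 by 0.45 ± 0.10, and 1 rose, Caf1-55, a histone-binding protein used in many complexes, by 0.43 ± 0.16 (adjusted p = 0.0311). Of the 7 broadly expressed counterparts 5 rose and 0 fell, with 0.60 ± 0.11 for Taf6, 0.63 ± 0.14 for mip120, 0.48 ± 0.12 for Taf5 and 0.39 ± 0.11 for mip130. Taf4 (-0.02 ± 0.06) and Taf8 (0.03 ± 0.15) did not pass. Whole-body ratios moved accordingly. The level of sa per kilobase was 34.4% of that of Taf8 at day 50, against 173% at day 10, and that of can was 14.05% of Taf5 at day 50, against 57.4% at day 10.

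The Y-linked, tubulin and accessory gland markers fell with the members, while the early germline and cyst cell markers were divided. All 7 Y-linked spermatocyte genes fell (median -3.92), their summed level being 0.397 to 13.04 CPM at day 50, against 51.6 to 82.8 CPM at day 10, with kl-5 at 0 or 1 count in m31, m34 and m35. The tubulin betaTub85D fell by 3.68 ± 0.71, to 3.83 to 119 CPM, against 647 to 864 CPM at day 10. All 5 accessory gland genes fell too, by a median of 0.63, with summed levels of 566 to 1408 CPM at day 50, against 1694 to 2536 CPM at day 10. Of 4 early germline genes 1 fell (bgcn, by 1.78 ± 0.36) and vas, nos and bam did not pass, their 4-gene sum being 14.8 to 89.6 CPM at day 50, against 32.5 to 41.3 CPM at day 10. Of 2 cyst cell markers eya fell by 0.94 ± 0.12, and tj had a log2 fold change of 0.73 ± 0.52 and did not pass. Their summed levels were 9.92 to 17.3 CPM at day 50, against 20.03 to 28.2 CPM at day 10. The 3 yolk protein genes did not pass, and osk and bcd were too low to be tested. The part of these cell types in the members' fall was not tested.

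In sons of HFD mothers the same interval gave no called member in the fit of the 3 ages, where 1.59% of genes were called (1.48% higher and 0.102% lower at day 50). That fit contains m8, and SEs were wide, from 0.35 for mia to 0.85 for sa. The 3 HFD day 50 libraries had 4.06, 4.55 and 4.87 CPM of aly, 14.7, 15.6 and 17 CPM of topi, 6.98, 8.15 and 9.74 CPM of sa, and 9.01, 10.9 and 13.1 CPM of rye, against medians of 7.22, 20.4, 10.1 and 14.5 CPM in HFD day 10 sons. Of the 9 members topi lay below its day 10 values without overlap (25.4% of genes did), and mia lay above them (16.3% of genes did). The values of mia were 16.8, 13.6 and 15.4 CPM at day 50, against 12.8, 10.9, 13.1, 9.19 and 10.2 CPM at day 10. Without m8, mia rose by 0.53 on the log2 scale (adjusted p = 0.0144) and was the single member called, with 5543 of 12718 genes called.

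In sons of HSD mothers all 9 members had a negative log2 fold change between day 10 and day 50, with a median of -0.89, from -0.35 ± 0.21 for mia to -1.39 ± 0.55 for tomb, and none passed, as did no gene of the 12681 tested (3063 at an unadjusted p under 0.05; the smallest adjusted p of a member was 0.172). Both groups held a library unlike its fellows. The HSD day 10 library m27 had 0.604 CPM of sa where the other 4 had 9.96 to 16.7 CPM, and the HSD day 50 library m45 had 9.69 CPM of sa where the other 5 had 1.95 to 5.48 CPM. Without m27, 8 members fell (3731 of 12749 genes called in either direction), from 1.03 for can to 1.61 for tomb on the log2 scale, and mia did not pass. Without m45 alone tomb and rye fell (adjusted p = 0.0409 and 0.0450). Without both, the same 8 fell, sa by 1.63 and topi by 1.46 (adjusted p = 0.000563 and 0.000566). For the fits without m45 alone and without both, the share of all genes called is not given here. The members called in them therefore have no background to be set against. Since m27 had low and m45 high member values, leaving them out partly sets the size and the calls of these falls. These calls are therefore a description.

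**Figure D3:**
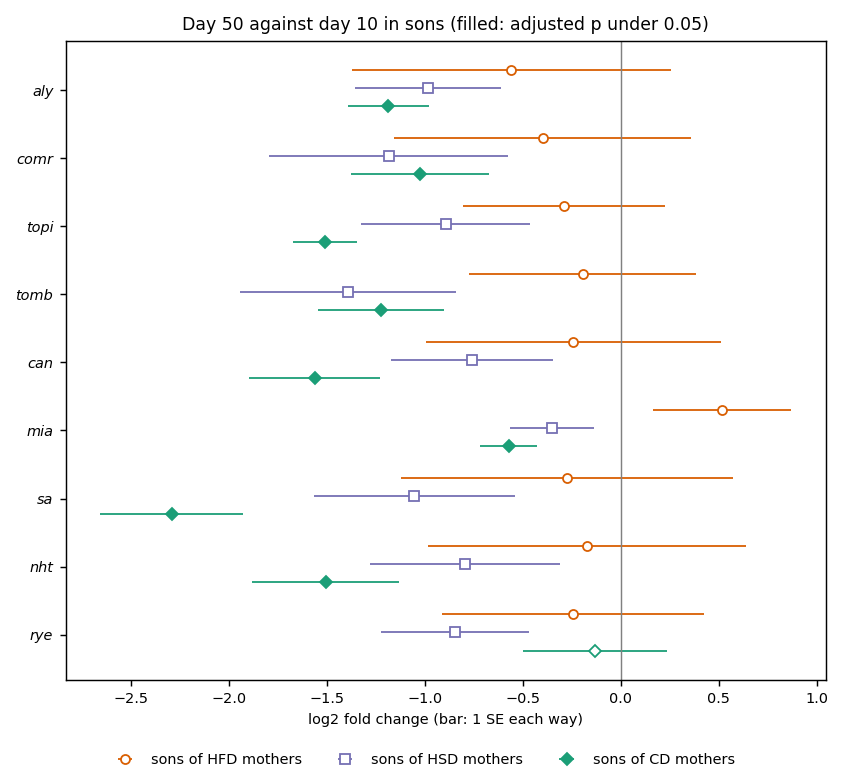
Log2 fold change of each member at day 50 against day 10 in sons of HFD, HSD and CD mothers, with bars of 1 SE each way; filled symbols passed an adjusted p of 0.05. The CD values are the filled ones, all but rye, and the HFD bars are the widest.

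Whether the maternal diet changed the members in sons was asked at each day. At day 0 and day 10 no member passed for HFD against CD, HSD against CD or HSD against HFD, where 0% of genes passed in each of these comparisons. Over the 3 comparisons, the log2 fold changes at day 0 lay between -0.34 ± 0.46 for tomb in HFD against CD and 0.53 ± 0.59 for can in HSD against HFD. Both ends contain m8, and without it tomb was at -0.05 and can at 0.21, and the values lay between -0.05 for tomb and 0.47 for rye. Also without m1, m3 and m4 they lay between -0.23 for tomb and 0.36 for comr, both in HFD against CD. At day 10 they lay between -0.29 ± 0.31 for aly in HSD against HFD and 0.20 ± 0.31 for aly in HFD against CD. The lower end contains m27, and without that library aly was at -0.05 in HSD against HFD, and the values lay between -0.23 for tomb in HFD against CD and 0.38 for tomb in HSD against HFD. No member passed without these libraries. The SEs for HFD against CD at day 10 ran from 0.14 for mia to 0.47 for comr. Differences of that size, and also larger ones, could have gone undetected at this depth and spread. By range alone, can was the single member whose groups did not overlap at day 0. It had 11.5, 10.9, 11.5, 11.8 and 9.504 CPM in HSD sons, against 7.58, 9.17, 9.19, 6.26 and 7.68 CPM in CD sons, as did 3.03% of genes in that direction, with a log2 fold change of 0.39 ± 0.59 in the fit that includes m8 and 0.38 without it. Also without m1, m3 and m4, which are CD sons of this comparison, can was at 0.32 (adjusted p = 0.593). It also lay above the HFD sons, at 8.95 to 9.43 CPM in those other than m8, where 0.532% of genes did so.

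**Figure D4:**
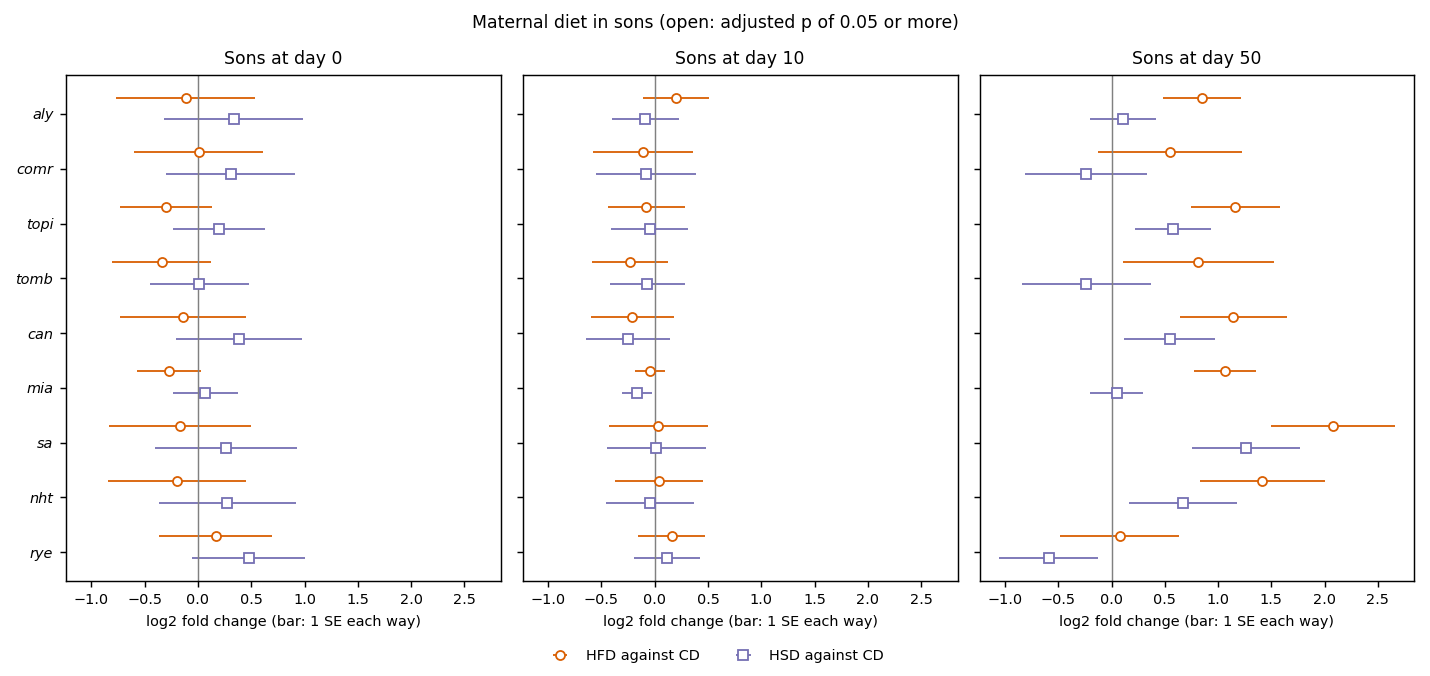
Log2 fold change of each member for HFD against CD and HSD against CD mothers in sons at day 0, 10 and 50, with bars of 1 SE each way. All symbols are open, since none passed an adjusted p of 0.05, and at day 50 the 9 HFD values lie above 0.

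At day 50 the members of HFD sons were higher than those of CD sons in value, and the calls differed between fits. All 9 log2 fold changes were positive, with a median of 1.07 against 0.00 over all genes. The testis TAF sa had 6.98, 8.15 and 9.74 CPM in the 3 HFD sons, against the 0.535 to 3.64 CPM of the 5 CD sons, without overlap (2.08 ± 0.58, adjusted p = 0.0976). For mia, 16.8, 13.6 and 15.4 CPM stood against 4.52 to 8.43 CPM (1.07 ± 0.29, adjusted p = 0.0976). The tMAC subunit topi had 14.7, 15.6 and 17 CPM, against 3.92 to 8.11 CPM (1.16 ± 0.42, adjusted p = 0.101). In 5 members, aly, topi, tomb, mia and sa, the groups did not overlap, and this also held for 25.3% of genes in that direction.

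The remaining values of this comparison were smaller or less certain. The log2 fold change was 1.42 ± 0.59 for nht, 1.14 ± 0.50 for can, 0.85 ± 0.36 for aly, 0.81 ± 0.71 for tomb, 0.55 ± 0.68 for comr and 0.08 ± 0.56 for rye. No gene of the 12659 tested passed (0%), although 3627 had an unadjusted p under 0.05 and the smallest adjusted p was 0.0565. The spread in this fit is shared with the HSD day 50 sons. Without m45 in that group topi, mia and sa passed (adjusted p = 0.0331, 0.0332 and 0.0311; 2360 of 12639 genes called), with only the HFD and CD sons in the fit aly passed too (4 members; 3444 of 12468 genes), and DESeq2 called topi, mia and sa (2384 genes).

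The listed genes around the members were read in the same libraries. The summed level of the 9 members was 67.4 to 74.5 CPM in HFD day 50 sons, against 19.9 to 58.1 CPM in CD day 50 sons. For betaTub85D it was 369 to 477 CPM in HFD sons, against 3.83 to 119 CPM in CD sons (2.95 ± 1.06, adjusted p = 0.101), and for the 7 Y-linked genes 28.9 to 42 CPM, against 0.397 to 13.04 CPM. The 5 accessory gland genes summed to 1557 to 2580 CPM, against 566 to 1408 CPM, and the 4 early germline genes to 21.9 to 29.8 CPM, against 14.8 to 89.6 CPM. The 5 genes that need both complexes had a median of 2.73 and the broadly expressed counterparts one of -0.24, and none of either list passed. The part of these markers in the members' values was not tested.

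HSD day 50 sons ranged over almost the whole span. The gene sa had a lowest value of 1.95, a median of 4.17 and a highest of 9.69 CPM over the 6 HSD libraries, against the CD range given above (1.26 ± 0.51, adjusted p = 0.302). For aly these were 1.27, 2.52 and 4.41 CPM (0.10 ± 0.31, adjusted p = 0.885) and for rye 2.34, 6.08 and 13.8 CPM (-0.59 ± 0.46, adjusted p = 0.531). The groups overlapped in all 9 members, 6 values were positive, the median was 0.10, and 0% of genes passed. Without m45 sa was at 0.95, topi at 0.24 (0.58 with m45), tomb at -0.63 (-0.24 with m45) and the median at 0.04. Against the HFD sons all 9 HSD values were negative, with a median of -0.74, and mia was the single member without overlap, at 4.07 to 10.6 CPM in HSD sons against 13.6 to 16.8 CPM in HFD sons (-1.02 ± 0.28, adjusted p = 0.848, 0% of genes passed; 1.74% of genes lay lower without overlap). Without m45 all 9 were again negative, with a median of -0.94 and mia at -1.03, and none passed. The HFD against CD and HSD against CD comparisons share the CD sons.

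The change in the diet difference between days was tested as an interaction over all 44 sons. For HFD against CD, day 50 minus day 10, it was 1.97 ± 0.87 for sa (adjusted p = 0.219), 1.18 ± 0.59 for topi (adjusted p = 0.270) and 1.04 ± 0.35 for mia (adjusted p = 0.217), and no member passed (0% of 13058 genes; 2478 at an unadjusted p under 0.05). Without m8 alone, sa and mia passed (adjusted p = 0.0494 and 0.0426; 1078 of 13046 genes), but without m1, m3, m4 and m8 no member did (adjusted p = 0.0670 for sa and 0.0616 for mia; 0 of 13103 genes). Without the 6 son libraries that stood apart (m1, m3, m4, m8, m27 and m45) sa, topi, mia and can did, sa at 2.01 (adjusted p = 0.00205; 3167 of 13105 genes). These libraries are outside the groups of this contrast and act mainly through the shared spread. As m27 and m45 stood apart by their testis values, the calls without them are a description. For HSD against CD none passed between day 50 and day 10 (0.00766% of genes) or between day 10 and day 0 (0%), nor for HFD against CD between day 10 and day 0 (0%).

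Across libraries the members varied together. Over the 43 sons other than m8, the Pearson correlation of log2 CPM between pairs of members had a median of 0.82 over 36 pairs, from 0.58 for mia with rye to 0.94 for can with sa. The points share libraries, depth and the difference between ages. Within a day the median was 0.55 over the 14 day 0 sons, 0.865 over the 15 day 10 sons and 0.70 over the 14 day 50 sons, and at day 10 it was 0.48 without m27. Against the mean of the other 8 members, topi correlated most (0.95) and mia least (0.76).

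The low libraries did not lose the members evenly. In m27 the level was 60.9% of the CD day 10 mean for mia, 28.1% for rye, 29.1% for tomb and 26.7% for aly, but 5.89% for sa and 3.81% for comr. In m35, a CD day 50 son, mia was at 58.6% and sa at 5.22%, and in m31 of the same group rye was at 67.0%, mia at 39.7% and sa at 7.74%. In m34 rye was at 193% while topi was at 33.9% and sa at 35.5%. In the HSD day 50 library m45 the members were between 56.6% (aly) and 113% (rye). Among the testis TAFs sa had the lowest share in m27, m31 and m35, but not in every low library. In m32, a CD day 50 son, nht was at 9.65% and sa at 15.4%, and in the HSD day 50 library m42 can was at 15.4%, nht at 17.1% and sa at 19.02%.

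**Figure D5:**
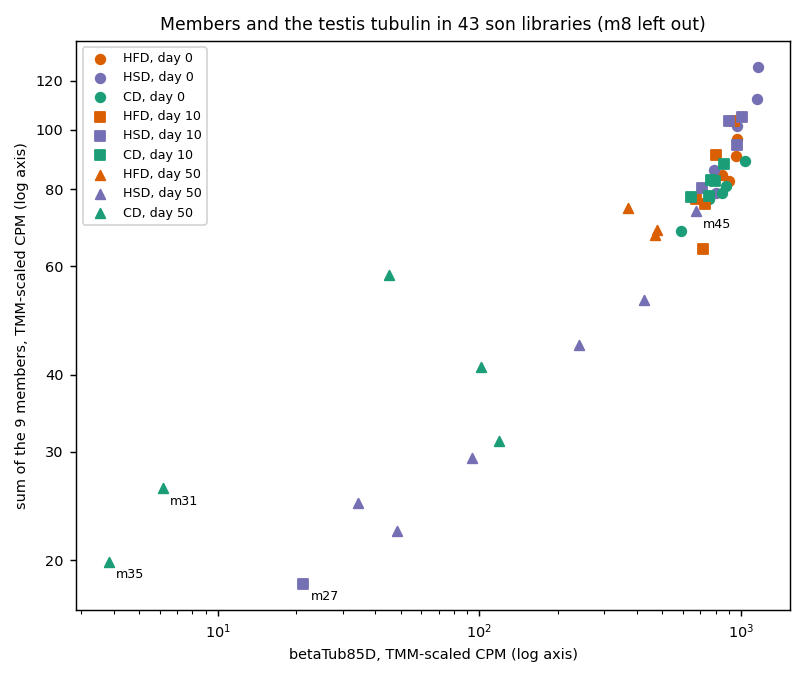
Summed level of the 9 members against the testis tubulin betaTub85D in 43 son libraries (both axes logarithmic, TMM-scaled CPM; colours are maternal diets, shapes are days). Most libraries of day 0 and day 10 sit at the upper right, m45 among them, and m27, m31 and m35 lie at 18.3 to 26.2 CPM of members, with 3.83 to 21.2 CPM of tubulin.

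The genes whose log2 CPM followed the mean of the 9 members most closely over these 43 sons, among 13049 other tested genes, were Rpt3R (r = 0.979), elfless (0.978), CG15446 (0.976), CG8097 (0.975), CG7691 (0.973), CG13577 (0.972), CG31642 (0.972) and ATPsynbetaL (0.971). They averaged 6.67 to 31.4 CPM in these sons. Outside the library labelled f12, 7 of the 8 stayed at 2.93 CPM or less in every daughter, and CG8097 reached 64.5 CPM. Of the genes listed for the members' biology, bgcn (0.967), tbrd-2 (0.960), twe (0.960) and tbrd-1 (0.958) followed them most, and of the 7 counterparts Taf6 (-0.75), mip120 (-0.68), Taf5 (-0.61), Taf12 (-0.57) and mip130 (-0.28) had negative and Taf4 (0.43) and Taf8 (0.43) positive correlations.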

How the data were processed

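Whole-number counts per gene, deposited by the authors in a table of progeny and a table of mothers, were used as they stand. Per the submitters' processing notes they come from kallisto on BDGP6, and the notes also name R 4.2.0 and DESeq2 1.36.0. No label or note says what each tool did, how the values were made whole or whether strand was used. kallisto divides reads shared between similar transcripts, which can move counts between similar genes.

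Members and lists were chosen with earlier results of these data known. FlyBase identifiers were matched to symbols with the Ensembl BDGP6.54 annotation, and rye through its synonym. Genes were filtered with filterByExpr (minimum count 10, minimum total 15), scaled by TMM and tested across all genes with edgeR 4.0.16 (limma 3.58.1, R 4.3.3), calling an adjusted p under 0.05. Diet was fitted over the 3 groups of a day, age over the 3 days of a diet, the interaction over all 9 groups of sons, and sex over 2 groups. An SE is the log2 fold change over the square root of its F value. Correlations use log2 CPM with a prior count of 1. The genes named are the 9 members, up to 4 per list by smallest p and the 8 most alike; Caf1-55, Taf4, Taf8, Taf12, fzo and the marker genes of other cell types are outside this rule and were named after their values were seen. Alternatives were DESeq2 1.42.0, other size factors, no filter, other samples in the fit and left-out libraries. The procedure was tested on simulated data, with changes set in genes of higher counts. For HFD against CD at day 50 it recovered 11 of 100 log2 changes of 1 and 67 of 100 of 2. For day 50 against day 10 in CD sons it recovered 68 and 93 of 100, and for the sexes in CD day 10 72 and 96. Of 200 pairs of libraries within groups none was a duplicate (chi-square per degree of freedom of 5.92 or more). Floors of 3 counts cover counting error only.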

Additional observations from a re-analysis of the deposited data

Results flagged for a closer look

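Within groups of 4 to 6 libraries, 13 of 92 values checked stood apart from the others of their group by Dixon's gap criterion, which flags about 1 in 20 groups by chance, and they came from 6 libraries. In HFD day 0 sons, m8 was lowest for aly (0 CPM, the nearest other at 5.205), topi (1.81, the nearest at 20.3), can (0.0724, the nearest at 8.95), rye (0.507, the nearest at 14.4) and the sum of the 9 members (4.996, the nearest at 82.6). In HSD day 10 sons, m27 was lowest for comr (0.101 CPM, the nearest at 2.69), topi (3.02, the nearest at 24.6), can (1.11, the nearest at 8.81) and the sum (18.3, the nearest at 80.4). In CD day 50 sons, m35 was lowest for topi (3.92, the nearest at 6.90). In CD day 0 sons, m5 was lowest for mia (9.80, the nearest at 10.8) and m4 for sa (7.66, the nearest at 9.19), both close to their fellows in size. Among females, f12 was highest for the sum in HSD day 0 daughters (25.3 CPM, the nearest at 10.3). Why these libraries differ was not tested.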

How the results depend on the processing

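The count of members called moved by more than 1.5 times in 6 of the 28 comparisons. For HFD against CD at day 50 it was 0, but 3 with DESeq2 and 3 without m45, the only library set apart that is in that fit. It was 4 with only the groups compared, 2 with all 9 groups and 0 to 3 leaving out each library. For day 50 against day 10 it was 0 in HFD sons and 1 without m8 (0 to 1 leaving out each library). In HSD sons it was 0, 2 without m45 and 8 without m27 as well (0 to 8). For HFD against CD, day 50 minus day 10, it was 0, 0 without the other-sex libraries, 2 without those and m45, and 4 without m27 as well (0 to 2 leaving out each library). For the sexes in HFD day 0 it was 1, 9 with DESeq2 and without m8, 8 with no filter and 1 to 9 leaving out each library; in CD day 50 it was 5, and 8 with DESeq2 (4 to 7 leaving out each library); leaving out each library gave 6 to 9 in HSD day 0 and in HSD day 10, 6 to 8 in HSD day 50, and 8 to 9 for day 50 against day 10 in CD sons. The genes called in either direction also differed between fits. For HFD against CD, leaving out each library gave 0 to 2360 genes at day 50. For the interaction, day 50 minus day 10, it gave 0 to 1078. For day 50 against day 10 it gave 67 to 5543 genes in HFD sons and 0 to 3731 in HSD sons. For the sexes it gave 527 to 6649 in HFD day 0 and 9636 to 10043 in CD day 50. Leaving out m27 was chosen after the data were seen, and leaving out m1, m3, m4, m8, m45 and f12 rested on earlier results of these data. The median log2 fold change of the members moved by over 1 SD in 42 of 658 values, all 42 between sons and daughters and with 0 changes of sign; among sons it stayed within 1 SD but changed sign in some comparisons, among them HFD against CD at day 0 (-0.17, and 0.14 without m8) and HSD against CD at day 10 (-0.07, and 0.22 without m27). Median-of-ratios size factors moved no count, and no called member changed direction. With the replicate block (library number), 0 members were called in HFD day 0 and the other counts kept within 1.5 times. Same-numbered sons and daughters correlated between -0.58 and 0.66, over 0.1 in 14 of 41 pairs. Differently numbered pairs were not computed beside them, so whether the numbers pair sons and daughters cannot be told. On unscaled totals 3 of 81 group means moved by over 1 SD (mia 9.69 and sa 8.14 in CD day 0, can 9.77 in HSD day 0). The median correlation was 0.55 at day 0, 0.70 at day 50 and 0.48 at day 10 without m27. The cause of each of these changes was not tested. Depth limits comr most, at 0 to 42 counts a son.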

Other observations

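In daughters the tMAC subunit aly was counted mainly at day 50. It had at least 1 count in 12 of 14 day 50 daughters, with 117 counts in all, a median of 0.536 CPM and a highest value of 1.75 CPM. In day 10 daughters it had 3 counts in 3 of 15 libraries, and in the 13 day 0 daughters other than f12 it had 6 counts in 3 libraries. The mothers had 26 counts in 9 of 15 libraries. The members were not alike in this. Over day 0 (without f12), day 10 and day 50, daughters had 20, 56 and 84 counts of tomb, 16, 34 and 62 of rye and 232, 278 and 382 of topi, but 24, 12 and 6 of can and 637, 765 and 639 of mia. For comr day 50 daughters had 0 counts, which allows up to 0.0173 CPM over the group, for nht 1 count and for sa 3. The summed level of the 7 Y-linked genes was 0 in every CD and HSD day 50 daughter and at most 0.305 CPM in HFD day 50 daughters. This comparison was chosen after the values were seen and carries no test.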
